A study of Mus musculus with 4 samples.

Results

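Genes for glucose entry, glycolysis, lactate and pyruvate conversion and glycogen turnover were examined in mouse heart ventricle with moderate overexpression of serum response factor (SRF). The members were taken from a list of 39 gene symbols. A gene counted as measured when a non-control probe set carried its symbol alone in the platform annotation, and the probe set with the highest mean over all 4 arrays stood for it. This held for 33 of the 39, out of 8251 genes measured in that way on the array. Gpi1, Eno1, Pdk2, Pygl and Pfkfb1 had no such probe set, and Gapdh had it only among the control probe sets. The 2 transgenic samples were ventricle of mice in which the heart overexpressed SRF moderately, and the 2 non-transgenic samples were ventricle of mice without the transgene, all at 6 months of age. Each sample was 1 Affymetrix array of biotin-labelled total RNA. The sources used here do not give the strain, the promoter that drives the transgene, or whether a sample was 1 animal or a pool. The p values therefore measure only how these arrays vary, and that variation may be technical. Srf itself was not analysed here.

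Heart muscle draws most of its energy from fatty acids but also takes up glucose, through GLUT1 (Slc2a1) and the insulin-responsive GLUT4 (Slc2a4). Glucose is trapped by hexokinase, committed to glycolysis by phosphofructokinase and split by aldolase, and the lower enzymes carry it to pyruvate, which either becomes lactate or enters the mitochondrion through pyruvate dehydrogenase. Several steps have a muscle-enriched isoenzyme (Pfkm, Pgam2, Eno3, Pygm) and others that are broad or enriched in fetal tissue or brain (Pfkl, Pfkp, Pgam1, Eno2, Pygb). Glycogen is the local store, built by glycogen synthase and branching enzyme and broken down by phosphorylase.

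Higher in transgenic ventricle were the transporter GLUT1, hexokinase 1, the platelet-type phosphofructokinase Pfkp, Pgk1, Pgam1, the neuron-type enolase Eno2 and the glycogen branching enzyme Gbe1. Their fold changes ran from 1.60 for Pgk1 to 2.82 for Eno2. Eno2 was bright enough to be tested only through its transgenic signal. Aldoa, Ldhb, the muscle phosphorylase Pygm and the muscle fructose bisphosphatase Fbp2 were lower, by 1.22-fold to 1.78-fold. The liver-type phosphofructokinase Pfkl and the brain phosphorylase Pygb did not pass the test (adjusted p = 0.158 and 0.987 in limma), and the brain aldolase Aldoc was too dim to be tested. The muscle forms Slc2a4 and Eno3 had nearly the same signal in both groups, with 95% intervals of the log2 change within -0.18 to 0.20 and -0.11 to 0.16. Not all muscle forms that missed the threshold stayed level. Pfkm and Hk2 were lower without overlap (log2 changes of -0.38 and -0.24), and Pgam2 was higher without overlap (0.21).

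Signals are intensities on a linear scale. Changes are transgenic minus non-transgenic on log2(signal + 9), which understates the change of dim genes, and fold changes are on that scale too. Of the 33 measured members 30 lay above a filter that left out the dimmest 40% of probe sets and were tested with limma. With an adjusted p under 0.05, 7 were higher in transgenic ventricle, 4 were lower and 19 did not pass. That is 36.7% of those tested, where 7.93% of all 7453 probe sets tested were called (4.07% higher and 3.86% lower). The share among all probe sets was larger among brighter ones. With the dimmest 60% left out, 333 of 4969 probe sets were higher and 309 lower, beside 6 and 5 of 26 members. The median log2 change of the tested members was -0.03 and that of all probe sets -0.01. Because the list was drawn up with earlier results of these data known, no test was made of the list as a whole. Eno2 was the 1 tested member whose non-transgenic level (27.1) lay below the filter level of 30.0, so it was tested through its transgenic signal. Among the other 29, 6 were higher and 4 lower. Signals of the groups did not overlap for 25 of the 30 tested members, 13 higher and 12 lower, beside 55.9% of all tested probe sets (27.8% higher and 28.1% lower).

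The calls rested on limma's model of variance, in which the trend with signal is shared across probe sets. With eBayes without that trend, and with an ordinary two-sample test, 0 members were called in either direction, with 7 higher and 4 lower at an unadjusted p below 0.05 in the first and 5 and 4 in the second. With no filter on dim probe sets 2 were higher (Hk1 and Pgam1) and 0 lower, with 9 lower at an unadjusted p below 0.05. After median centring of the arrays 8 members were higher and 2 lower, and over all probe sets 397 were higher and 197 lower, where the values as deposited gave 303 and 288. Leaving out 1 array leaves its group with a single array, which is then assumed to vary like the 2 arrays of the other group and limma's prior. Under that assumption Hk1, Pgk1 and Pgam1 had an adjusted p of up to 0.0351, 0.0355 and 0.0416 over the 4 such fits, and each of the other 8 called members missed the threshold in at least 1 of them.

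**Figure D1:**
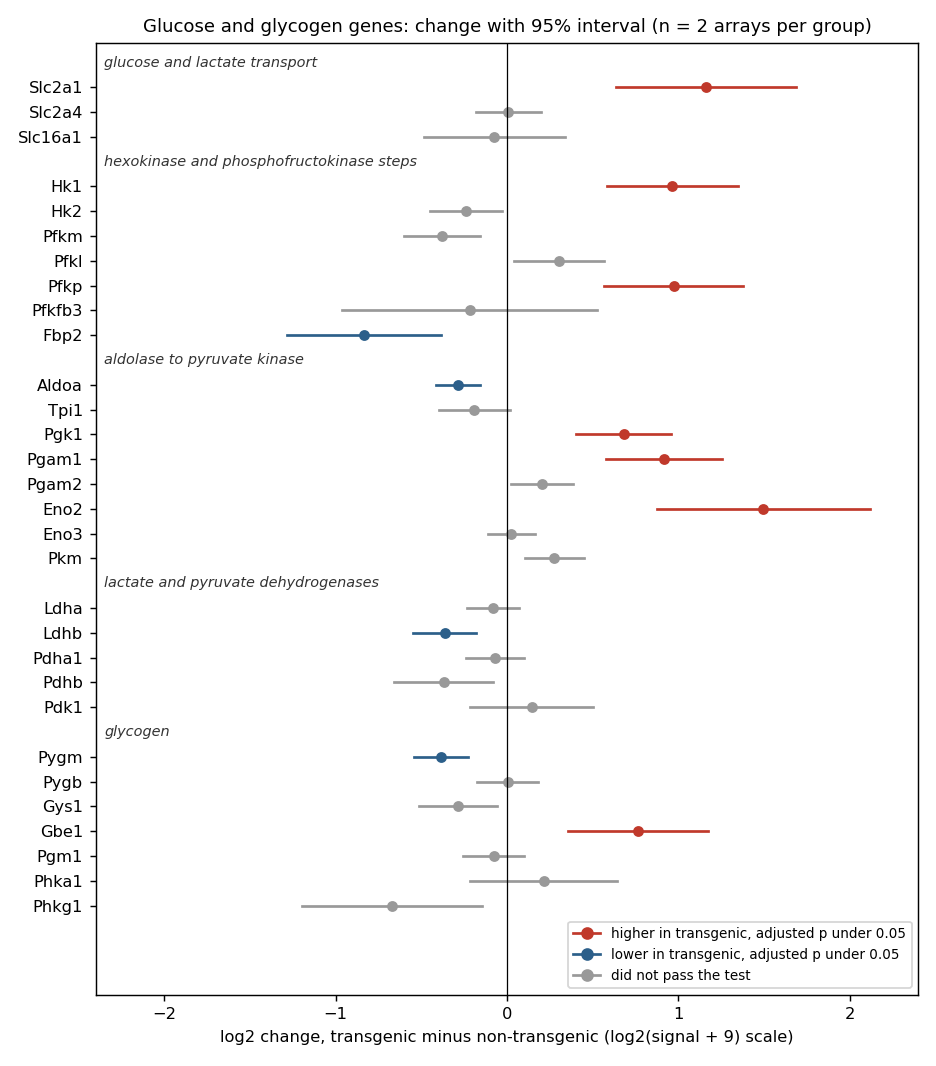
Log2 change (transgenic minus non-transgenic) of the 30 tested members with limma's 95% interval, n = 2 arrays per group, in pathway order from top to bottom. Red points are the 7 genes higher and blue points the 4 genes lower with an adjusted p under 0.05, and grey points did not pass. Eno2 lies farthest to the right at 1.49, and Fbp2 farthest to the left at -0.83.

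SRF acts by binding CArG boxes, and glycolytic genes are known targets of hypoxia-inducible factor, whose sites hold the letters ACGTG, while muscle forms are known targets of MEF2. Promoter windows of 300 bases, from RefSeq on build GRCm38.p6, were found for 32 of the 33 measured members (45 windows), with Slc2a4 not matched. A gene was counted once if any of its windows held the motif on either strand. The letters ACGTG stood in the windows of 19 of the 32 members (59.4%), among them 4 of the 7 that rose (Slc2a1, Hk1, Pgk1 and Pgam1) and 3 of the 4 that fell (Aldoa, Fbp2 and Pygm). They stood in 30.1% of the 4578 genes that were tested on these arrays and had a window, and in 21.8% of all 27025 genes. The core holds a CpG. The median number of CpG was 15 in the members' windows, 20 in those of the tested genes and 7 in all windows. The E-box CACGTG, which contains the core, stood in 6 of the 32 members (18.8%), against 12.6% of the tested genes, and 0 of the 7 that rose held it. A CArG box was found in 1 member, Ldha (3.12%, against 1.94% of the tested genes), and a MEF2 site in 1, Pgam2 (against 2.01%). The CArG box was searched only as CC, then 6 of A or T, then GG. Forms with 1 mismatch, and sites outside these windows, were not searched. These are matches of letters, and binding was not measured.

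The windows of the 4 genes that rose and held ACGTG are shown because they let the position of the core be compared. Aldoa, Fbp2 and Pygm, which fell, also held it and are not shown, so the display does not set rising genes apart. Each runs from 250 bases before the annotated start to 50 bases after it, 5′ to 3′ on the gene's strand, with each core on either strand in capitals. Slc2a1 lies at chr4:119108495-119108794 on the plus strand, with its core at -36 from the start. The Hk1 window, at chr10:62340372-62340671 on the minus strand, belongs to the inner of its annotated starts and has cores at 7 and 16 bases after it. Pgk1 lies at chrX:106186850-106187149 on the plus strand, with cores at -150 and, on the opposite strand, at -131. Pgam1 lies at chr19:41911621-41911920 on the plus strand, with its core at -114.
Slc2a1: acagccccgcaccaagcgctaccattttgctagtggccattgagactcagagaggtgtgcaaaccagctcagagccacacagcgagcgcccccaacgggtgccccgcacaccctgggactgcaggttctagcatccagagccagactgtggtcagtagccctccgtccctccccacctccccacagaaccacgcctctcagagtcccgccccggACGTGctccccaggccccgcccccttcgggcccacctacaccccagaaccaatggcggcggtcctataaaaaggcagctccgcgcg
Hk1: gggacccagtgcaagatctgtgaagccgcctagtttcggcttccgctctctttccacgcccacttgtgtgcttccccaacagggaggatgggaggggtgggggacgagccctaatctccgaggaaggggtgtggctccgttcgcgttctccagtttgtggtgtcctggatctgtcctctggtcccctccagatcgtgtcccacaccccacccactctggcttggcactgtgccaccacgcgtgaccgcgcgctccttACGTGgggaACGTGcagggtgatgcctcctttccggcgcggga
Pgk1: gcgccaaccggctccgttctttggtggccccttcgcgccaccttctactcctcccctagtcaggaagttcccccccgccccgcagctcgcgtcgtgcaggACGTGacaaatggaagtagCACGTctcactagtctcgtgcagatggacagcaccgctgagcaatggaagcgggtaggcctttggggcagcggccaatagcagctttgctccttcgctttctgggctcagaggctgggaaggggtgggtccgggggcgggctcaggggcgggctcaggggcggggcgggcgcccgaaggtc
Pgam1: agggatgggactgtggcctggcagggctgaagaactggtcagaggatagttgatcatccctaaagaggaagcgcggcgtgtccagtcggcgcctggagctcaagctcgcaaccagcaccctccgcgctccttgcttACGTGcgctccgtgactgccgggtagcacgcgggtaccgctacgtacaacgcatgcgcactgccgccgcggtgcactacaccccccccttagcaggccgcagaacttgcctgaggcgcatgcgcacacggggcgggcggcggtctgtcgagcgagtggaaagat

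The window of the muscle mutase Pgam2 is shown beside that of Pgam1 because the pair codes for the same step, and that of Ldha because it held the one CArG box. Capitals mark the MEF2 site of Pgam2, at -80, and the CArG box of Ldha, 7 bases after the start. The Ldha window also holds ACGTG on either strand, with matches from -145 to -34, which are left in lower case here. Pgam2 lies at chr11:5803747-5804046 on the minus strand and Ldha at chr7:46845554-46845853 on the plus strand. Neither gene passed the test.
Pgam2: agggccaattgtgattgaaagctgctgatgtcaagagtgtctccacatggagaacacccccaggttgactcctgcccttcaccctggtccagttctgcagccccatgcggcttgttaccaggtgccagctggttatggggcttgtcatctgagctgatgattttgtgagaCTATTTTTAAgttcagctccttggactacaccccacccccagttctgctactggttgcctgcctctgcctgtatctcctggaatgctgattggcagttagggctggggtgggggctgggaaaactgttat
Ldha: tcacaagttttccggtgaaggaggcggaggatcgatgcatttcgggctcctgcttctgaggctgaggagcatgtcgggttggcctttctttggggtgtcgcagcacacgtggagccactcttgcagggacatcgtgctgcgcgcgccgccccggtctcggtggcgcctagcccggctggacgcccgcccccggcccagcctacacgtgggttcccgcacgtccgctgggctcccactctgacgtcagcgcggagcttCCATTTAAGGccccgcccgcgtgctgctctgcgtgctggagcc

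Glucose transport differed between the transporters. GLUT1, Slc2a1, which carries basal glucose uptake, had 89.1 and 85.6 in the transgenic arrays, against 39.9 and 29.0 in the non-transgenic arrays. Both transgenic arrays were above both non-transgenic ones. The log2 change was 1.16 ± 0.22 (SE), a 2.23-fold rise, with an adjusted p of 0.0254 in limma. The signal was low, and the call ended without transgenic replicate 1 (adjusted p = 0.122 in limma), transgenic replicate 2 (0.0897) or non-transgenic replicate 2 (0.0604). GLUT4, Slc2a4, which moves to the membrane under insulin, had 1523 and 1478 in transgenic ventricle, against 1537 and 1447 in non-transgenic ventricle. The transgenic values lay inside the range of the non-transgenic ones. Its log2 change was 0.01, and -0.0016 after quantile normalization. Slc16a1, the lactate and pyruvate carrier MCT1, had 98.4 and 87.7 in transgenic arrays, against 91.3 and 105.8, with a log2 change of -0.07 that was 0.0054 after median centring.

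Hexokinase phosphorylates glucose as it enters. Hk1, the broadly expressed form that is prominent in brain, had 1360.4 and 1158 in the transgenic arrays and 543.6 and 749.8 in the non-transgenic arrays. The groups did not overlap. The log2 change was 0.97 ± 0.16 (SE), a 1.95-fold rise (adjusted p = 0.0171 in limma). Hk2, the insulin-regulated form of adult muscle, had 1391 and 1253 in transgenic ventricle, against 1529 and 1594. It was lower in both transgenic arrays, but its log2 change of -0.24 did not pass the test (95% interval -0.45 to -0.03, adjusted p = 0.156 in limma).

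Phosphofructokinase is the committed step of glycolysis. The platelet-type subunit Pfkp had 124.7 and 139.5 in transgenic ventricle, against 60.6 and 65.2 in non-transgenic ventricle. Its log2 change was 0.97 ± 0.17 (SE), a 1.96-fold rise (adjusted p = 0.0195 in limma). A second, similar probe set for Pfkp gave 0.62 and did not pass (adjusted p = 0.113). The call of Pfkp ended without transgenic replicate 1 (adjusted p = 0.0628 in limma), transgenic replicate 2 (0.0928) or non-transgenic replicate 1 (0.0503). The muscle subunit Pfkm had 3120.1 and 2837 in transgenic arrays, against 4189 and 3580.2, and the liver-type subunit Pfkl had 1305 and 1209, against 927 and 1115. The groups were apart for both, in opposite directions. Pfkm was at -0.38 ± 0.09 (SE) on the log2 scale (adjusted p = 0.0577 in limma), and passed with the replicate block (0.0192), with robust eBayes (0.0496), with the dimmest 60% left out (0.0329) and without non-transgenic replicate 2 (0.0378). Pfkl had 0.30 ± 0.11 (SE) and an adjusted p of 0.158.

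Fbp2, the muscle enzyme that opposes phosphofructokinase, had 76.9 and 95.5 in transgenic ventricle, against 179.9 and 141.8 in non-transgenic ventricle. It was lower in both transgenic arrays, by 0.83 ± 0.19 (SE) on the log2 scale, or 1.78-fold (adjusted p = 0.0436 in limma). The call ended without transgenic replicate 1 (0.160 in limma), non-transgenic replicate 1 (0.132) or non-transgenic replicate 2 (0.0515). Pfkfb3, which makes the phosphofructokinase activator fructose 2,6-bisphosphate, was dim. It had 34.7 and 37.7 in transgenic arrays and 30.6 and 60.7 in non-transgenic arrays, and the groups overlapped. Pfkfb2, the heart form of that enzyme, lay below the filter at 25.5 and 27.4, against 27.1 and 21.6, and was not tested.

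The aldolase and triose steps were bright. Aldolase A, Aldoa, the muscle form, had 7109.8 and 7247 in transgenic ventricle, against 8648 and 8891 in non-transgenic ventricle. It was lower by 0.29 ± 0.05 (SE) on the log2 scale, or 1.22-fold (adjusted p = 0.0241 in limma). This small fall was sensitive to scaling, at -0.21 (adjusted p = 0.0726) after median centring and -0.08 (0.421) after quantile normalization, and it ended without any 1 of the 4 arrays (0.0579 to 0.108 in limma). A second probe set for Aldoa gave -0.06. Both carry the suffix for probes shared with related sequences, so part of the signal may come from other transcripts. Aldoc, the brain form, was below the filter (31.5 and 10.2, against 38.8 and 51.2). Tpi1, triose phosphate isomerase, had 4642 and 3932, against 4974 and 4782, and its change of -0.19 on the log2 scale did not pass (adjusted p = 0.242 in limma). Gapdh was read from its control probe sets for the 5′, middle and 3′ parts of the transcript, which were left out of the tests. They averaged 9997, 11081 and 8970.4 in transgenic arrays and 10464, 11762 and 9948 in non-transgenic arrays, log2 changes of -0.07, -0.09 and -0.15.

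The lower glycolytic enzymes held 3 of the rises. Phosphoglycerate kinase, Pgk1, which makes the first ATP of the pathway, had 2056 and 2138 in transgenic ventricle, against 1159 and 1469 in non-transgenic ventricle. Both transgenic arrays were above both others, and the log2 change was 0.68 ± 0.12 (SE), a 1.60-fold rise (adjusted p = 0.0191 in limma). Phosphoglycerate mutase 1, Pgam1, the brain and broadly expressed form, had 586 and 763 in transgenic arrays and 357 and 343 in non-transgenic arrays. Here the transgenic arrays varied more than the others, and the rise was 1.89-fold (log2 change 0.92 ± 0.14 SE, adjusted p = 0.0140). The muscle form Pgam2 had 3255 and 3475, against 2790 and 3046. Its groups did not overlap, but the log2 change of 0.21 did not pass the test (adjusted p = 0.162).

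Enolase 2, Eno2, the form typical of neurons, had 102.7 and 83.8 in transgenic ventricle, against 20.8 and 34.8 in non-transgenic ventricle. The non-transgenic arrays were near the dim end of the array. Their level lay below the filter level, so Eno2 was tested through its transgenic signal. The log2 change was 1.49 ± 0.26 (SE), or 2.82-fold (adjusted p = 0.0195 in limma). The call ended without transgenic replicate 1 (adjusted p = 0.0969). Of 8 markers of neurons and Schwann cells 5 were measured and 2 tested. Of these Uchl1 was higher (349 and 366, against 152.6 and 124.2). Sox10 had 78.0 and 85.7 in transgenic arrays, against 95.6 and 105.9, without overlap, and was not called (adjusted p = 0.379 in limma). Gap43 and S100b overlapped between the groups at no more than 23.7, and Snap25 was at most 4.5 on every array. The summed level of the 5 was 468 to 479 in transgenic and 249.9 to 295 in non-transgenic arrays, a difference carried by Uchl1 alone. The part of these cells in the rise of Eno2 was not tested. The muscle enolase Eno3 had 5631 and 5736 in transgenic arrays, against 5573 and 5588, a log2 change of 0.03. Pyruvate kinase, Pkm, which makes pyruvate and ATP, had 5456 and 5087, against 4535 and 4166. It was higher in both transgenic arrays, and its log2 change of 0.28 ± 0.07 (SE) missed the threshold (adjusted p = 0.0675 in limma). It passed after median centring (0.0309), quantile normalization (0.0246), with the dimmest 60% left out (0.0429) and with the replicate block (0.0467). A second probe set for Pkm gave 0.30 (adjusted p = 0.237).

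**Figure D2:**
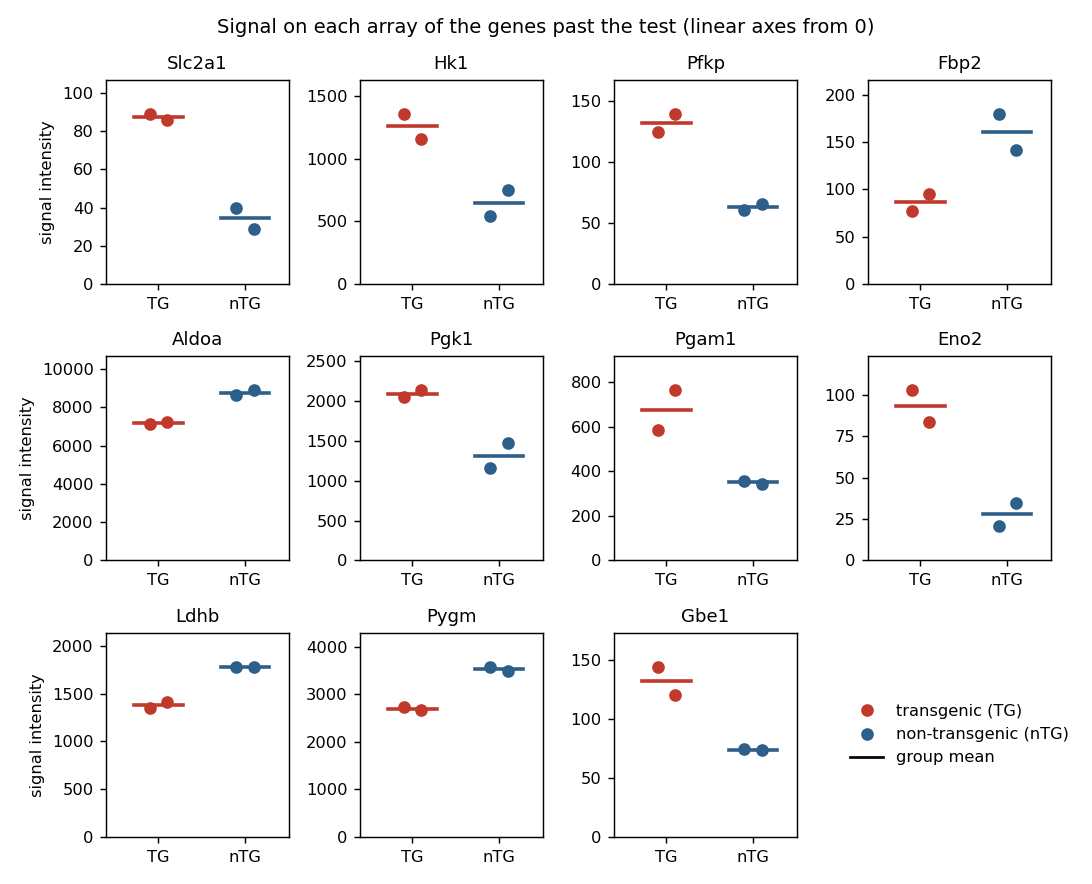
Signal intensity of the 11 members past the test on each array, with transgenic arrays (TG, red) left of non-transgenic arrays (nTG, blue) and bars at the group means, n = 2 each. Axes are linear from 0 and differ between panels. The groups do not overlap in any of these panels, with the widest relative gap in Eno2 (83.8 and above, against 34.8 and below) and the narrowest in Aldoa.

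At the branch of pyruvate, the heart form of lactate dehydrogenase was lower. Ldhb had 1353 and 1411 in transgenic ventricle, against 1778 and 1783 in non-transgenic ventricle. It was lower by 0.36 ± 0.08 (SE) on the log2 scale, or 1.29-fold (adjusted p = 0.0355 in limma), and the call ended without any 1 of the 4 arrays (0.0859 to 0.157) and after median centring (0.0779). Ldha, the muscle form that favours lactate production, had 3812 and 3936 in transgenic arrays, against 4027 and 4182. Its log2 change was -0.08 with a 95% interval of -0.23 to 0.07, and the change was 0.0123 after quantile normalization. The subunits of the first component of pyruvate dehydrogenase did not pass the test. Pdha1 had 2766 and 2624, against 2891 and 2764, and Pdhb had 2583 and 2079, against 2772 and 3235. The groups of Pdha1 overlapped by a narrow margin and those of Pdhb did not, with log2 changes of -0.07 and -0.37 (adjusted p = 0.607 and 0.122 in limma). Pdhb passed without transgenic replicate 1 (adjusted p = 0.0427). Pdk1, a kinase that switches the complex off, had 143.0 and 166.6, against 137.9 and 139.9, and a log2 change of 0.14.

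Glycogen genes moved in both directions. Muscle glycogen phosphorylase, Pygm, which releases glucose phosphate, had 2726 and 2671 in transgenic ventricle, against 3578 and 3482 in non-transgenic ventricle. Replicates were close together, and it was lower by 0.39 ± 0.07 (SE) on the log2 scale, or 1.31-fold (adjusted p = 0.0181 in limma). The call ended without transgenic replicate 1 (0.0589 in limma), transgenic replicate 2 (0.0671) or non-transgenic replicate 1 (0.0613). The brain form Pygb had 1587 and 1595 in transgenic arrays, against 1570.2 and 1606, with a log2 change of 0.00 and a 95% interval of -0.18 to 0.18. The branching enzyme Gbe1, which adds the side chains of glycogen, had 144.1 and 119.8, against 74.1 and 73.3. Both transgenic arrays were higher, by 0.76 ± 0.17 (SE) on the log2 scale, or 1.70-fold (adjusted p = 0.0433 in limma). This call ended without any 1 of the 4 arrays (0.0781 to 0.244).

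The remaining glycogen genes did not pass. Muscle glycogen synthase, Gys1, had 862 and 804 in transgenic ventricle, against 1059.9 and 975 in non-transgenic ventricle (log2 change -0.29, adjusted p = 0.124 in limma). Phkg1, the catalytic subunit of the kinase that activates muscle phosphorylase, had 31.8 and 35.6, against 55.8 and 61.9. It was lower in both transgenic arrays, with a log2 change of -0.67 and an adjusted p of 0.123. Its muscle regulatory subunit Phka1 had 84.7 and 98.9, against 82.3 and 73.4 (0.21, adjusted p = 0.520). Phosphoglucomutase 1, Pgm1, which links glycogen to glycolysis, had 2147 and 2094, against 2166 and 2313, a log2 change of -0.08 that was 0.0019 after median centring and 0.0101 after quantile normalization. Pgm2 was below the filter, with 20.9 and 35.3 against 38.0 and 18.0.

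Pairs of isoenzymes were compared through the log2 ratio of their probe sets within each array. A shift of all log2 values of an array by the same amount cancels in such a ratio. Other scaling does not cancel. Quantile normalization took the change of Pfkl/Pfkm from 0.68 to 0.55, of Pgam1/Pgam2 from 0.71 to 0.58 and of Ldha/Ldhb from 0.28 to 0.39. The value added to the signal mattered for dim genes. The change of Slc2a1/Slc2a4 was 1.33 with 1 added and 0.84 with 32 added. No pair changed sign in these settings. Of the 12 pairs listed 10 were measured. In 8 the transgenic arrays were both above the non-transgenic arrays, in 0 both were below, and in 2 the groups overlapped. Among single probe sets, 27.8% of all those tested were higher without overlap and 28.1% lower, and the same share was not computed for ratios. The pairs are not independent, since Pfkm stands in 2 of them and 7 of the 8 hold a gene already called. The choice of which isoenzyme stood on top of the ratio was made with results known. With 4 arrays the exact permutation test cannot give a two-sided p below 0.333, and all 8 had that value. The Hk1/Hk2 ratio was higher by 1.21 in transgenic ventricle (-0.03 and -0.11, against -1.48 and -1.08, all log2). Eno2/Eno3 was higher by 1.47, with the non-transgenic level of Eno2 below the filter level. Pfkp/Pfkm was higher by 1.35 and Slc2a1/Slc2a4 by 1.15. Smaller shifts were those of Pgam1/Pgam2 (0.71), Pfkl/Pfkm (0.68, but 0.44 when non-transgenic replicate 1 was left out and 0.93 when replicate 2 of that group was), Pygb/Pygm (0.39) and Ldha/Ldhb (0.28). In Ldha/Ldhb and Pygb/Pygm the second gene had passed the test as lower, and the first had not passed. Aldoc/Aldoa was lower by mean and Pgm2/Pgm1 higher by mean, with overlap in both, and each held a gene below the filter. Without single arrays Aldoc/Aldoa ran from -1.21 to -0.10 and Pgm2/Pgm1 from -0.34 to 0.56.

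**Figure D3:**
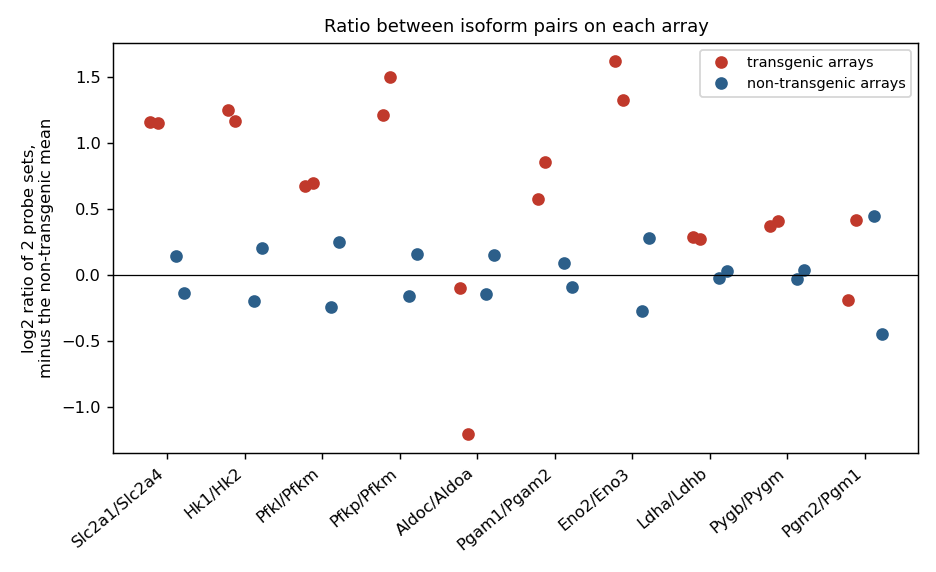
Log2 ratio of the probe sets of each isoenzyme pair on each array, minus the mean of the non-transgenic arrays, with transgenic arrays (red) left of non-transgenic arrays (blue). In 8 of 10 pairs both red points lie above both blue points, and they overlap in Aldoc/Aldoa and Pgm2/Pgm1.

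Other genes of glucose use, 111 in 8 lists, were measured in 72 cases and tested in 51, of which 1 was higher and 4 lower. These 5 are 9.8% of the genes tested, near the 7.93% called among all probe sets, so the count does not set these lists apart. The median log2 change over these 51 was -0.10. Among other transporters and carriers 2 of 11 were tested. Bsg, basigin, the partner that brings monocarboxylate carriers to the membrane, was lower (4648 and 4807, against 5768 and 5665), a change of -0.27 whose call ended after median centring (adjusted p = 0.0972 in limma), after quantile normalization (0.227) and without any 1 array. Among other pyruvate dehydrogenase genes 1 of 4 was called. Pdk4, the kinase induced by fatty acids and fasting, had 1865 and 1562 in transgenic ventricle, against 2662 and 2308, lower by 0.54 ± 0.11 (SE) on the log2 scale (adjusted p = 0.0341 in limma). Its call ended after median centring (0.0568), after quantile normalization (0.0501) and without transgenic replicate 2 (0.0884) or non-transgenic replicate 1 (0.107).

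Of 10 tested glycogen genes outside the members, lysosomal alpha-glucosidase, Gaa, which clears glycogen in lysosomes, was the 1 called. It had 648 and 823 in transgenic arrays, against 1211 and 1138, and was 0.68 ± 0.13 (SE) lower on the log2 scale (adjusted p = 0.0237 in limma), a call lost without transgenic replicate 1 (0.0636), non-transgenic replicate 1 (0.0774) or non-transgenic replicate 2 (0.0550). In the shuttles that carry reducing equivalents into mitochondria, 1 of 6 was called. This was Slc25a11, the oxoglutarate carrier, with 2089 and 1938, against 2712 and 3095 (log2 change -0.52 ± 0.09 SE, adjusted p = 0.0181 in limma, and 0.0569 without non-transgenic replicate 2). Among 14 tested regulators, Hif1a, the oxygen-regulated subunit of hypoxia-inducible factor, was higher. It had 741 and 726 in transgenic ventricle, against 561 and 490.3, higher by 0.48 ± 0.11 (SE) on the log2 scale (adjusted p = 0.0432 in limma). This probe set and a second one carry the suffix for probes shared with related sequences. Part of the signal may come from other transcripts. The second probe set for Hif1a gave 0.62 (adjusted p = 0.0144). Without transgenic replicate 1, transgenic replicate 2 or non-transgenic replicate 2 it did not pass (0.149, 0.106 and 0.119), nor after quantile normalization (0.0509).

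In the remaining lists 0 genes were called in either direction. The gene with the smallest p among 6 tested of the pentose phosphate pathway was transaldolase, Taldo1 (395 and 287, against 244 and 204, adjusted p = 0.108 in limma), which passed with the replicate block (0.0396) and without transgenic replicate 2 (0.0423). Among 4 of gluconeogenesis it was the mitochondrial Pck2 (27.5 and 41.7, against 52.2 and 57.2, adjusted p = 0.230). Among 5 other glycolytic genes it was Pklr, the liver and red cell pyruvate kinase (38.1 and 63.7, against 106.4 and 52.2, adjusted p = 0.412).

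**Figure D4:**
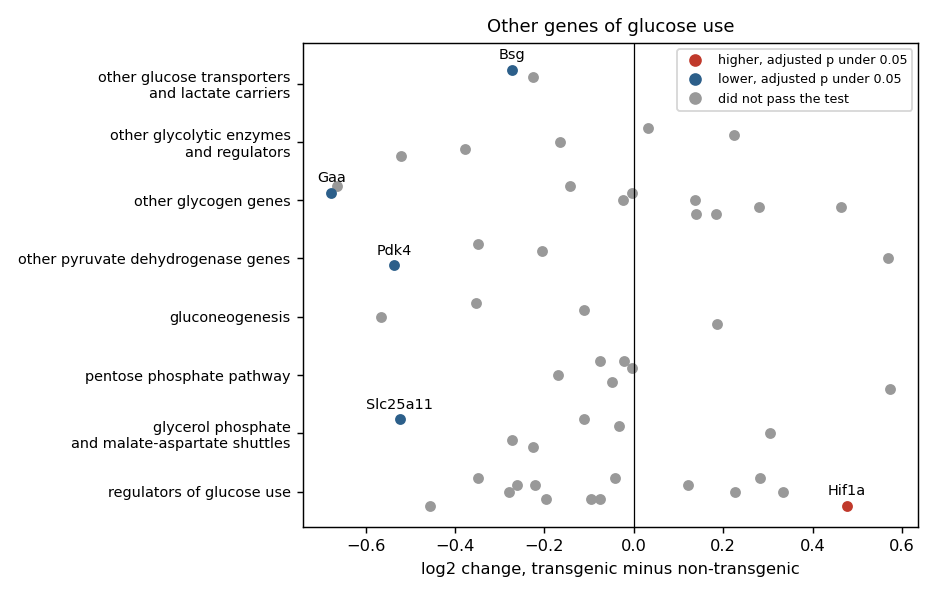
Log2 change (transgenic minus non-transgenic, horizontal axis) of the tested genes of 8 further lists of glucose use, 1 point per gene, with vertical offsets only to separate points. Hif1a (0.48, red) was higher, and Bsg, Gaa, Pdk4 and Slc25a11 (blue) were lower, with an adjusted p under 0.05.

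Markers of several cell types, but not of all, differed between the groups. In such tissue RNA, fewer cells of a type and less RNA per cell cannot be told apart. Cardiomyocyte markers were lower in 6 of 9 cases with 0 higher, and their summed level was 60029 to 61790.0 in transgenic and 77133 to 78569 in non-transgenic arrays. Fibroblast markers were higher in 8 of 9 cases (sum 11976 to 12475, against 7245 to 7380) and macrophage markers in 3 of 8 (2764 to 2966, against 1728 to 1952). The remaining fibroblast marker, Pdgfra, was lower without overlap (331.9 and 298.3, against 523 and 391.1). It was not called (adjusted p = 0.106 in limma). Hepatocyte markers were lower in 6 of 7 (255 to 316, against 2538 to 4714), and adipocyte markers in 2 of 5 (3673 to 3715, against 5027 to 5331). Most of the adipocyte sum was Lpl (3202.9 and 3200.6, against 4591.2 and 4166.9). Adipoq was also called lower (73.8 and 74.6, against 175.2 and 237.8). Lep and Cidea were lower without overlap and were not called, and Fabp4 overlapped between the groups. Skeletal muscle markers had 2 higher (Casq1 and Acta1) and 1 lower (Atp2a1) of 7, while the fast myosin Myh1 was at most 30.0 and Myh2 at most 5.5. Endothelial markers had 1 higher and 1 lower of 8, smooth muscle markers 1 higher of 5, and red cell markers 1 higher of 4. The hepatocyte marker Alb was 50.3 and 35.7, against 856 and 1738. Fbp1, the liver counterpart of Fbp2, had 6.9 and 1.9, against 14.8 and 64.6, and lay below the filter. The part of these shifts in the changes of the glucose and glycogen genes was not tested. The ratio of the 3′ to the 5′ control probe set of Gapdh, a sign of RNA length, was 0.917 and 0.879 in transgenic and 0.954 and 0.948 in non-transgenic arrays. The same ratio for actin overlapped between the groups. It was 1.222 and 1.108 in non-transgenic arrays, with transgenic replicate 1 between them and transgenic replicate 2 above both at 1.302. Actin thus did not show the separation seen with Gapdh. Array medians were 49.0 and 50.6 in transgenic arrays and 53.9 and 52.3 in non-transgenic arrays.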

How the data were processed

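The authors deposited 1 intensity for each probe set of each array, and the values themselves (above 0, with 1 decimal) show a linear scale. Per the labels' protocols, column-purified total RNA was biotin-labelled after Affymetrix's procedure. The sources used here do not give the signal software or scaling. Detection calls were not used. The labels' transgenic status set the groups. Of 12488 probe sets 66 were controls. Values were used as log2(signal + 9), where 9 is the rounded 20th percentile, without further scaling. Probe sets in the lowest 40% by mean log2 value over all 4 arrays were left out, and 7453 were tested.

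Groups were compared with lmFit and eBayes (variance trend) in R 4.3.3 (limma 3.58.1). Two-sided p values were adjusted by Benjamini-Hochberg over all 7453, with a threshold of 0.05, and the prior carried 5.05 degrees of freedom beside 2 residual ones. Errors beside log2 changes are moderated standard errors. The members, lists, isoenzyme pairs and motifs were chosen with earlier results of these data known. All members were named, and from each further list those past the threshold, or else the 1 with the smallest p. Alternatives were other pseudocounts (1 and 32), scalings, filters, variance models, thresholds, other probe sets, a replicate block, and leaving out each array. The fit was tested on simulated arrays. Deviations of same-numbered arrays from their group means did not correlate positively (-0.06), so the numbers were not taken as pairs. The number of arrays limits precision.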

Additional observations from a re-analysis of the deposited data

How the results depend on the processing

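Over the 30 tested members and 15 alternatives (14 for the 4 members that the stricter filter removed), 446 values were obtained, of which 361 kept their direction and side of the threshold, 59 lost a call, 11 gained one and 15 changed sign. No called member changed sign in any of these alternatives. The number of all probe sets called higher and lower, 303 and 288, was 172 and 157 with no filter, 44 and 34 with eBayes without a trend, 0 and 0 with an ordinary two-sample test (605 and 570 with an unadjusted p below 0.05) and 477 and 484 at an adjusted p of 0.10. Leaving out an array gave 125 to 232 higher and 158 to 191 lower, and median centring gave 397 and 197. For the members, 7 higher and 4 lower became 2 and 0 with no filter (the test then ran over more, dimmer probe sets), 0 and 0 with eBayes without a trend and with an ordinary two-sample test, and 3 to 5 and 0 to 2 when an array was left out. Members called lower were 2 after median centring and 2 when the second probe set stood for genes with several. In that last setting 26 members were tested. The second probe set of Aldoa did not pass, and that of Ldhb was below the filter and not tested. The replicate block gave 8 higher and 5 lower members and 348 and 345 probe sets.

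The sign changes were those of members near 0 and of the dim Pfkfb3, which passed the test under no setting: Slc2a4 (-0.0016 after quantile normalization), Slc16a1 (0.0054 after median centring), Ldha (0.0123 after quantile normalization), Pdha1 (0.0107 and 0.0016 after median centring and quantile normalization), Pygb (-0.0038 after quantile normalization), and Pgm1 (0.0019 and 0.0101 after median centring and quantile normalization). Leaving out an array gave -0.0346 to 0.0523 for Slc2a4, -0.1718 to 0.0230 for Slc16a1, -0.0130 to 0.0191 for Pygb, -0.6256 to 0.1900 for Pfkfb3 and -0.3383 to 0.5560 for the ratio Pgm2/Pgm1. Why the calls depend on the variance model was not tested. Low signals (Eno2, Slc2a1, Gbe1, Pfkp and Fbp2) limit the precision of their changes.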
